A study of Mus musculus with 28 samples.

Results

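Mfsd2a, Plvap, Cav1, Cav2, Cavin1, Cavin2 and Cavin3 are 7 genes of vesicle transport and of the fenestral diaphragm at the wall of brain vessels, taken by name from the 53647 gene IDs of the count table. Each matched 1 gene ID, and all 7 passed the filter on low counts in every fit. The data are 28 RNA-seq libraries of sorted mouse brain vessel cells, from brain metastases (BrM) raised by injection and from non-tumor brain. The PDGFRb sort (mural cells, tdTomato-positive) gave 4 breast BrM, 4 lung BrM and 5 non-tumor libraries, and the CD31 sort (endothelial cells) gave 5 breast BrM, 5 lung BrM and 5 non-tumor libraries. In all 15 animals or pools were used, and 13 were sampled in both sorts. Breast BrM grew from PyMT-BrM3 cells and lung BrM from Sv2T3-BrM1 cells, both placed into the heart, so each tumor type is 1 cancer line. The labels give every library the same genotype and course: PDGFRβ-CreERT2 and Rosa-tdTomato alleles and tamoxifen at 2 mg a day for 5 days. The red label therefore marks cells in which Pdgfrb-driven Cre was active at the time of tamoxifen, not cells that express Pdgfrb at harvest. Age is not given, nor whether non-tumor mice were injected. Before either sort, cells positive for CD45, CD11B or EPCAM were gated out. 2 lung libraries of each sort carry a label with 2 mouse numbers and count as 1 replicate each.

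Endothelial cells of the brain carry few vesicles across the vessel wall, which is part of the blood-brain barrier. Mfsd2a is a membrane transporter that brings lysophosphatidylcholine with docosahexaenoic acid into the brain and is known to hold caveolar transcytosis down in brain endothelium. Caveolae are flask-shaped pits of the plasma membrane: caveolins (Cav1, Cav2) form the scaffold in the membrane, and cavins coat it from the cytoplasm, with Cavin1 required for assembly, Cavin2 linked to the shape of the pit and Cavin3 an adaptor subunit. Plvap forms the diaphragms of fenestrae and caveolae in leaky vessels and is low in mature brain endothelium.

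Depth and purity set limits on what follows. Library totals lay between 7.11 M and 23.9 M counts, the lowest being the PDGFRb library of breast mouse 51950, which also had the fewest genes detected (9174). Pecam1, the gene of CD31, lay between 592 and 1437 CPM (counts scaled to a common library size) in the CD31 sort and between 0.0512 and 11.5 CPM in the PDGFRb sort. Within the CD31 sort it was itself lower in BrM, by a log2 change of -0.71 in breast (adjusted p = 0.0052) and -0.52 in lung (adjusted p = 0.028). Pdgfrb had 302 to 1386 CPM in breast BrM, 36.0 to 42.2 CPM in 3 lung libraries and 466 CPM in the other (mouse 51435), and 856 to 1470.2 CPM in non-tumor libraries of the PDGFRb sort. The 14 mural markers of the PDGFRb sort summed to 7399 to 24930.3 CPM in breast, 359 to 10347 CPM in lung and 16232 to 40765 CPM in non-tumor libraries, so the lung libraries other than that of mouse 51435 went against their label. Krt8, an epithelial keratin, had 418 to 1197 CPM in breast, 2494 to 4033 CPM in lung and 0.884 to 8.59 CPM in non-tumor libraries of that sort. In the CD31 sort the 15 epithelial markers summed to 179.5 to 3482 CPM in breast, 132 to 2361 CPM in lung and 3.28 to 16.4 CPM in non-tumor libraries. Despite the gate against EPCAM, RNA of its gene Epcam was counted. CD31 libraries had 14.1 to 389 CPM in breast, 0 to 39.8 CPM in lung and 0 to 0.809 CPM in non-tumor brain. PDGFRb libraries had 73.6 to 271 CPM in breast, 5.94 to 31.9 CPM in lung and 0 to 6.02 CPM in non-tumor brain. Title and cell type label of mouse 54135 name opposite sorts in both its libraries. They were grouped by title: the library titled PDGFRb had 856 CPM of Pdgfrb and 4.01 CPM of Pecam1, and the library titled CD31 had 0.227 CPM of Pdgfrb and 1362 CPM of Pecam1. In these genes both libraries match their title and not the cell type label. Grouping them by that label, as in a setting below, therefore mixes the sorts. In sorted bulk RNA, fewer cells of a type and less RNA per cell cannot be told apart.

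RefSeq promoter windows (build GRCm38.p6) were at hand for 5 of the 7 genes, Mfsd2a, Cav1, Cav2, Cavin1 and Cavin2, with 2 start sites each for Cav1 and Cavin1. The 250 bases before the start are shown for Mfsd2a, the barrier gene of the group, and for Cav1, Cav2 and Cavin2, which moved together in the CD31 sort (first start site of Cav1). Motifs searched on both strands were CTTTGA and CTTTGT (TCF/LEF, the factors of Wnt signalling), CCGGAA (ETS), ACAATG and ACAAAG (SOX), GGAATG (TEAD), CCACCC (KLF) and CACGTG (E-box), where ACAAAG is the reverse complement of CTTTGT. Capitals mark a match.
Mfsd2a, chr4:122961189-122961438, minus strand: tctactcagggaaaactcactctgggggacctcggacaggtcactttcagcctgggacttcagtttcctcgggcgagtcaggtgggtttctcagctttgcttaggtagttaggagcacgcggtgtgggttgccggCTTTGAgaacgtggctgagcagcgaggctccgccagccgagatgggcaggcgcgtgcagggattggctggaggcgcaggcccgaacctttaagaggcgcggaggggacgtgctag
Cav1, chr6:17306085-17306334, plus strand: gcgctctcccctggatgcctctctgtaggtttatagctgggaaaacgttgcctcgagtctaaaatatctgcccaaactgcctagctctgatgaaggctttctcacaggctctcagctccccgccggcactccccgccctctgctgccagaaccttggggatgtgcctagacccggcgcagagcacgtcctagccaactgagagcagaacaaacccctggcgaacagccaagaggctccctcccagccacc
Cav2, chr6:17280935-17281184, plus strand: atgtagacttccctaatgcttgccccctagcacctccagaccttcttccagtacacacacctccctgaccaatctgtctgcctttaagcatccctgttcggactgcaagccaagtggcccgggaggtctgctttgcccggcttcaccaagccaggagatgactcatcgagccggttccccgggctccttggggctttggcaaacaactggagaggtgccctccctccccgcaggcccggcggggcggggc
Cavin2, chr1:51288876-51289125, plus strand: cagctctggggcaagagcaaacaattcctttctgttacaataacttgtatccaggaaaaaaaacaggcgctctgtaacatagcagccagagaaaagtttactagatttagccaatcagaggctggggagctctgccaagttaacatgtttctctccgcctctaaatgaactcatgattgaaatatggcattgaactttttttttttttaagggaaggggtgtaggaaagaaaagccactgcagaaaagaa
Mfsd2a held 1 match, CTTTGA on the sense strand 115 bases before the start, a word that 13.8% of 32851 promoter windows of this length hold. Cav1 at both start sites, Cav2 and Cavin2 held none of these words. Cavin1 held GGAATG on the antisense strand, 247 bases before its first listed start, and CCACCC on the antisense strand at 158 and 75 bases (12.6% and 28.1% of all windows hold these words), and both lay 2 bases farther from its other start. GC content of the window was 40.4% for Cavin2, against 61.6% for Mfsd2a, 59.6% for Cav1, 62% for Cav2 and a median of 52.4% over all windows. A match in these letters is a description and not a binding site.

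In the CD31 sort, all 7 genes passed the test in breast BrM against non-tumor brain: Plvap and Cavin3 rose, and Mfsd2a, Cav1, Cav2, Cavin1 and Cavin2 fell. Of the 14876 genes tested in this comparison, 30.1% passed (18.6% rose and 11.4% fell). In lung BrM 5 of the 7 passed, with Plvap and Cavin3 higher and Cav1, Cav2 and Cavin2 lower, against 34.8% of all genes (20.4% rose and 14.5% fell). The median log2 change of the 7 was -1.66 in breast and -0.65 in lung, against 0.04 and -0.0033 over all genes tested. Both comparisons share the same 5 non-tumor libraries. All p-values are from edgeR's quasi-likelihood test with Benjamini-Hochberg adjustment over all genes, and a gene passed at an adjusted p under 0.05.

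**Figure D1:**
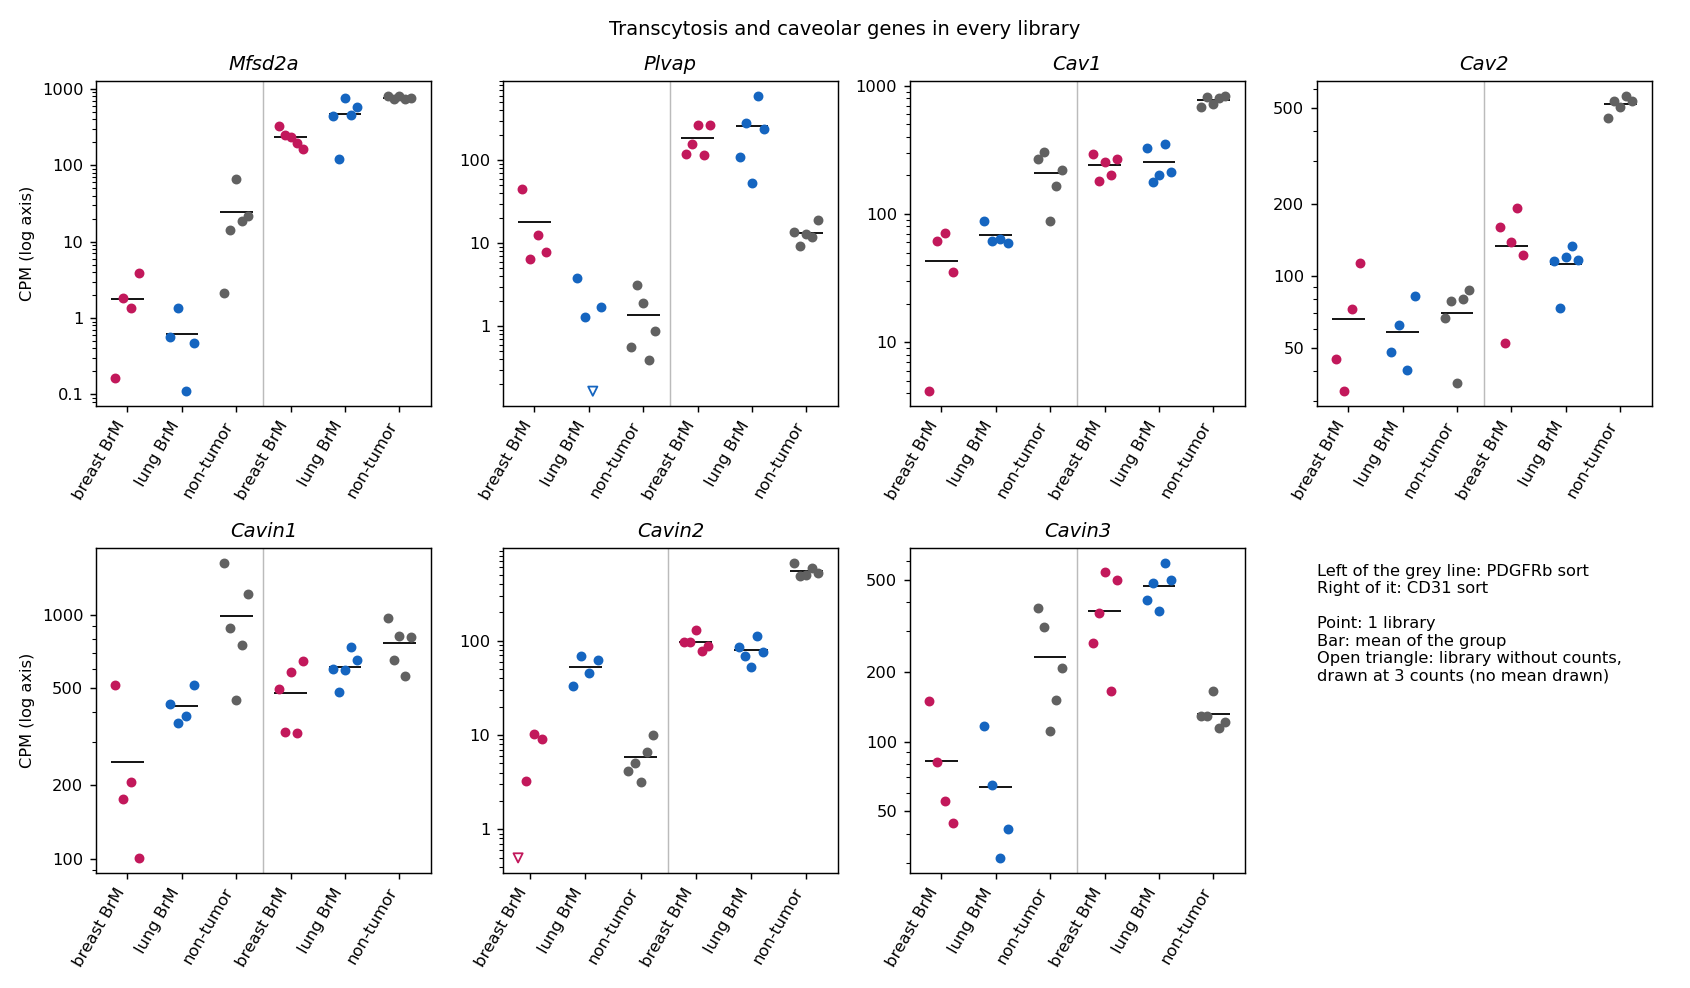
CPM of the 7 genes on log axes, 1 point per library, with the PDGFRb sort left of the grey line and the CD31 sort right of it, and bars at group means. Open triangles are libraries with 0 counts, drawn at 3 counts. In the CD31 sort, the non-tumor libraries stand above all BrM libraries for Cav1, Cav2 and Cavin2 and below them for Plvap.

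Mfsd2a had 325, 250.2, 235, 194 and 165 CPM in the 5 CD31 libraries of breast BrM, against 811, 728, 799.9, 729 and 767 CPM in the 5 non-tumor libraries. No breast library reached the lowest non-tumor value. The log2 change was -1.68 ± 0.32 (SE; adjusted p = 0.00084), a fall to 234 ± 60.8 CPM in breast BrM, against 767 ± 38.6 CPM in non-tumor brain (SD, n = 5 each). In lung BrM the 5 libraries were spread from 121 CPM in mouse 51697 to 760.1 CPM in mouse 54957, with 446, 456 and 579 CPM between, and the highest of them overlapped the non-tumor range. The lung change was -0.65 ± 0.32 (adjusted p = 0.12). It would have passed without mouse 54957 (-0.86, adjusted p = 0.049). Per 100 CPM of Pecam1, Mfsd2a averaged 28.4 ± 7.64 in breast and 48.6 ± 20.3 in lung BrM, against 54.7 ± 3.34 in non-tumor brain (SD, n = 5 each).

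Plvap moved the other way. Breast BrM had 118, 155, 263, 117 and 266 CPM, against 13.8, 9.39, 12.8, 12.01 and 18.9 CPM in non-tumor CD31 libraries. Lung BrM had 111, 279, 53.9, 598 and 241 CPM, lowest in mouse 54957 and highest in 55169-70. Every BrM library lay above every non-tumor library. The log2 change was 3.81 ± 0.51 in breast (14.0-fold, adjusted p = 3.5e-05) and 4.32 ± 0.52 in lung (19.96-fold, adjusted p = 1.2e-05). Mouse 54957, lowest for Plvap among the lung libraries, was the highest for Mfsd2a. The ratio of Mfsd2a to Plvap in the authors' FPKM, which are scaled by gene length, was 0.574 to 2.54 in breast BrM and 0.415 to 13.3 in lung BrM, against 38.2 to 73.5 in non-tumor brain, without overlap.

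Both caveolins fell in both tumor types. Cav1, the main scaffold protein of caveolae, had 294, 181, 253, 200.5 and 268 CPM in breast BrM and 327, 177, 203, 352.5 and 212 CPM in lung BrM, against 681, 816, 726, 803 and 836 CPM in non-tumor CD31 libraries. The groups did not overlap, with log2 changes of -1.66 ± 0.20 in breast (adjusted p = 9.1e-06) and -1.54 ± 0.20 in lung (adjusted p = 1.7e-05). Cav2, which forms complexes with Cav1 at the membrane, had 159.9, 52.7, 138, 191 and 122 CPM in breast BrM and 116, 73.5, 119.5, 133 and 116 CPM in lung BrM, against 456, 535, 506, 562 and 535 CPM. Its change was -1.93 ± 0.26 in breast (adjusted p = 3.6e-05) and -2.16 ± 0.26 in lung (adjusted p = 1.2e-05), again without overlap. Set against Pecam1, which was also lower, Cav1 averaged 28.6 ± 4.25 CPM per 100 CPM of Pecam1 in breast BrM and 27.7 ± 7.76 in lung BrM, against 55.0 ± 4.89 in non-tumor brain.

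The 3 cavins went different ways. Cavin2 fell most of the 7 genes in both tumor types: it had 97.6, 97.1, 131, 78.0 and 87.9 CPM in breast BrM and 86.7, 69.1, 53.0, 111 and 76.1 CPM in lung BrM, against 677, 490.0, 495, 586 and 519 CPM in non-tumor CD31 libraries. Its log2 change was -2.46 ± 0.20 in breast (5.51-fold lower, adjusted p = 1.8e-07) and -2.74 ± 0.20 in lung (6.70-fold lower, adjusted p = 6.3e-08). Cavin3 rose: breast BrM had 267, 359, 538, 165 and 499 CPM and lung BrM 407, 485, 366, 592 and 497 CPM, against 129, 129, 166, 114 and 121 CPM. Only the breast library of mouse 53072, at 165 CPM, lay within the non-tumor range. The change of Cavin3 was 1.498 ± 0.25 in breast (2.82-fold, adjusted p = 0.000297) and 1.89 ± 0.26 in lung (3.72-fold, adjusted p = 3.6e-05). An annotated gene on the other strand, Gm45667, overlaps Cavin3 and the kit keeps no strand, so reads of the pair cannot be told apart. Cavin1, the coat subunit that caveolae need, had the smallest changes in size: 499, 331, 585, 328 and 646.5 CPM in breast BrM and 599, 483, 595, 740.0 and 655 CPM in lung BrM, against 974, 653, 823, 563 and 815 CPM. It passed in breast (-0.65 ± 0.20, adjusted p = 0.022) and not in lung (-0.26 ± 0.20, adjusted p = 0.34). The breast call of Cavin1 was lost without breast mice 52599 or 53072 or non-tumor mouse 53680 (adjusted p up to 0.067). Per 100 CPM of Pecam1, Cavin1 averaged 56.0 ± 10.4 in breast and 67.7 ± 12.1 in lung BrM, against 54.6 ± 11.6 in non-tumor brain.

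The mix of cavin transcripts differed between BrM and non-tumor libraries of the CD31 sort on a scale per length. The FPKM ratio of Cavin3 to Cavin2 was 4.27 to 11.4 in breast BrM and 9.39 to 14.0 in lung BrM, against 0.383 to 0.675 in non-tumor brain. The ratio of Cavin1 to Cavin2 was 2.95 to 6.37 in breast BrM and 5.76 to 9.68 in lung BrM, against 0.832 to 1.44. The ratio of Cav1 to Cav2 was 1.14 to 3.65 in breast BrM and 1.91 to 3.12 in lung BrM, against 1.58 to 1.73. The groups overlapped in this last ratio between breast BrM and non-tumor brain and in neither of the cavin ratios.

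**Figure D2:**
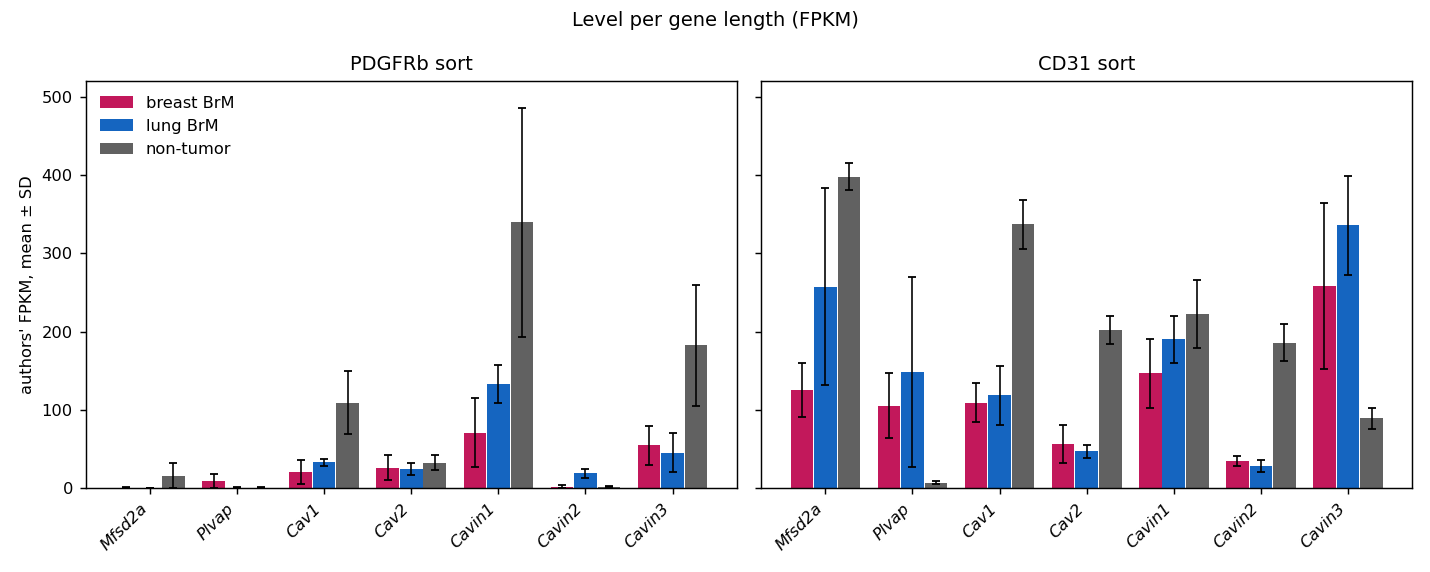
Mean FPKM (the authors' values, scaled by gene length) of the 7 genes, with SD as error bars cut at 0, in the PDGFRb sort (left) and the CD31 sort (right). Among the 7 genes of the CD31 sort, Cavin3 had the highest mean in both BrM groups and Mfsd2a in non-tumor brain, while Cavin2 was lowest in both BrM groups and Plvap in non-tumor brain.

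On that scale the rank of the genes within a group changed too. Cavin3 had the highest mean of the 7 in CD31 cells of breast BrM (258 ± 106 FPKM) and lung BrM (336 ± 62.9 FPKM) and was next to last in non-tumor brain (89.3 ± 13.7 FPKM). Mfsd2a led in non-tumor brain (398 ± 17.3 FPKM), was behind Cavin3 and Cavin1 in breast BrM (126 ± 34.6 FPKM) and behind Cavin3 in lung BrM (257 ± 126 FPKM). Cavin1 led in all 3 groups of the PDGFRb sort, with 71.1 ± 44.0 FPKM in breast BrM, 134 ± 24.0 FPKM in lung BrM, against 339.8 ± 146 FPKM in non-tumor brain.

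The dates in the column names divide the libraries further. With the date as a covariate, all 7 breast calls and all 5 lung calls of the CD31 sort held. In that fit 2291 of 14876 genes passed in breast and 1458 in lung. The part of the dates in these changes was not tested beyond this fit and the following ratios. Dates held by 1 group alone add nothing to the log2 changes of that fit. Fit and ratios therefore rest on the same shared dates and are not separate checks. Breast and non-tumor CD31 libraries share 2 dates, the first with 2 and 1 libraries and the second with 3 and 1. Within them the log2 ratios of mean CPM were -1.64 and -1.88 for Mfsd2a, 3.09 and 4.14 for Plvap, -1.46 and -1.63 for Cav1, -1.38 and -2.28 for Cav2, -1.24 and -0.66 for Cavin1, -2.94 and -2.23 for Cavin2 and 0.75 and 1.49 for Cavin3. Lung and non-tumor CD31 libraries share 1 date (2 libraries each), with -0.16 for Mfsd2a, 3.24 for Plvap, -1.98 for Cav1, -2.22 for Cav2, -0.14 for Cavin1, -3.10 for Cavin2 and 1.87 for Cavin3. All signs were those of the pooled comparison. Grouping mouse 54135 by cell type label instead ended the breast calls of Mfsd2a (-1.38, adjusted p = 0.085), Cavin1 (-0.52, adjusted p = 0.15) and Cavin2 (-2.18, adjusted p = 0.051).

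Lung and breast BrM were also compared directly in the CD31 sort. Their libraries share no date in the column names, so tumor type and date cannot be told apart in this comparison. None of the 7 genes passed (1 at an unadjusted p under 0.05, and 1 by DESeq2, Mfsd2a with adjusted p = 0.028), and 2.13% of all genes did (0.578% higher and 1.55% lower in lung). Mfsd2a was the nearest, with a log2 difference of 1.04 ± 0.32 between lung and breast (adjusted p = 0.12, 95% interval 0.41 to 1.66). Without lung mouse 51697, the library lowest in Mfsd2a, its difference was 1.28 (adjusted p = 0.0029). Intervals of the other 6 reached from -0.38 to 1.41 for Plvap, -0.26 to 0.49 for Cav1, -0.73 to 0.26 for Cav2, -0.0027 to 0.79 for Cavin1, -0.65 to 0.09 for Cavin2 and -0.09 to 0.89 for Cavin3. These intervals do not show that the tumor types act alike.

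Around the 7 genes, 6 lists of the same pathways were counted in the CD31 sort. Together 103 of their genes were tested, of which 23 rose and 25 fell in breast BrM (46.6%, against 30.1% of all genes) and 23 rose and 26 fell in lung BrM (47.6%, against 34.8%). Their median log2 change was -0.16 in breast and -0.03 in lung, and over all genes tested it was 0.04 and -0.0033. Over all genes 18.6% rose and 11.4% fell in breast, and 20.4% rose and 14.5% fell in lung. Of 20 listed genes of caveola assembly and scission 16 were tested, and 3 rose and 5 fell in breast as in lung BrM (list medians -0.21 and 0.09). The dynamin GTPases that pinch vesicles off fell: the log2 change was -2.30 for Dnm3 and -1.38 for Dnm2 in breast, and -2.36 for Dnm3 and -1.29 for Dnm2 in lung (adjusted p 2.8e-06, 0.00031, 2.1e-06 and 5e-04). Of the EHD ATPases, Ehd4 rose by 1.33 in breast and 1.48 in lung and Ehd3 by 1.33 in breast and 1.80 in lung. Ehd2 did not pass in breast (-0.23, adjusted p = 0.54) or in lung (0.11, adjusted p = 0.76). Pacsin3, a membrane-bending protein, rose in breast (6.37 ± 5.60 CPM, against 0.757 ± 0.576 CPM in non-tumor brain) and had 2.99 ± 3.25 CPM in lung (adjusted p = 0.14). Of 16 clathrin coat genes tested 4 rose and 4 fell in breast and 5 rose and 6 fell in lung (medians -0.31 and -0.28), with Bin1 higher by 2.13 and 2.10 and the epsin Epn2 lower (-1.45 and -1.35).

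Cargo receptors of transcytosis were mixed as well. Of 17 tested, 4 rose and 6 fell in breast and 5 rose and 4 fell in lung (medians -0.26 and -0.03). Tfrc, the transferrin receptor, fell to 80.4 ± 32.7 CPM in breast and 105 ± 15.4 CPM in lung, against 577 ± 111 CPM in non-tumor CD31 cells (adjusted p = 5.7e-07 and 2.3e-06). Fcgrt, the neonatal Fc receptor, fell in both (-2.77 in breast and -2.0033 in lung), and so did Igf1r (-2.62 in breast and -2.63 in lung). Vldlr, a receptor for lipoproteins, rose to 24.4 ± 25.1 CPM in breast and 12.9 ± 10.2 CPM in lung, against 0.505 ± 0.59 CPM. Of 20 endosome and recycling genes 3 rose and 5 fell in each tumor type (medians -0.19 and -0.13), the falls including the early endosome GTPase Rab5b (-1.29 and -1.34). Of 17 genes that regulate fenestrae and permeability 5 rose and 4 fell in each (medians 0.21 and -0.09). Angpt2, a ligand that loosens vessels, rose (3.49 and 3.01), and its receptor gene Tek fell (-1.87 and -1.61). Among 17 tested genes of endothelial lipid transport 4 rose and 1 fell in breast and 2 rose and 2 fell in lung (medians 0.15 and 0.33). Gpihbp1, the anchor of lipoprotein lipase, rose to 111 ± 67.0 CPM in breast and 182 ± 165 CPM in lung, against 6.15 ± 2.57 CPM, and Fabp5 rose to 165 ± 194 CPM in breast, against 1.5002 ± 1.504 CPM, with 5.17 ± 4.69 CPM in lung (adjusted p = 0.12). Markers of other cells moved in the same comparisons. Of 13 epithelial markers tested 12 rose in breast and 8 in lung, and of 12 immune markers 4 rose in breast and 6 in lung, none falling (immune medians 2.19 and 3.84). Of 7 fibroblast markers 2 rose in breast, and 4 rose and 1 fell in lung (medians 0.63 and 3.29). Of 7 astrocyte markers 3 rose and 1 fell in breast and 2 rose and 2 fell in lung, with summed levels of 384 to 689 CPM in breast and 326 to 595 CPM in lung, against 109 to 191 CPM in non-tumor brain. The immune markers summed to 3.55 to 89.8 CPM in breast and 18.4 to 246 CPM in lung, against 3.12 to 10.7 CPM. The part of these cells in the list counts and in the changes of the 7 genes was not tested.

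In the PDGFRb sort 3 of the 7 genes passed in each tumor type. Breast BrM against non-tumor brain gave 3 falls, Mfsd2a, Cav1 and Cavin1, and no rise, where 8.99% of 17028 genes passed (6.3% rose and 2.69% fell). Lung BrM against non-tumor brain gave falls of Mfsd2a and Cavin3 and a rise of Cavin2, where 17.5% of genes passed (9.91% rose and 7.58% fell). The median log2 change of the 7 was -1.46 in breast and -1.18 in lung, against -0.16 and -0.03 over all genes. These comparisons share the 5 non-tumor PDGFRb libraries. None of the 3 breast or 3 lung calls held with the date as a covariate (adjusted p 0.19 to 0.49 in breast and 0.22 to 0.45 in lung). In that fit the breast log2 changes were -3.59 for Mfsd2a, -2.39 for Cav1 and -1.84 for Cavin1. The lung ones were -4.38 for Mfsd2a, 3.05 for Cavin2 and -1.67 for Cavin3. It called 115 of 17028 genes in breast and 578 in lung, against 1531 and 2977 without the date. None of the lung calls held without the lung libraries whose labels name 2 mice (adjusted p 0.13 to 0.25). Neuron and astrocyte markers moved with these falls. Of 8 neuron markers tested 5 fell in each tumor type (medians -8.71 in breast and -6.59 in lung), with summed levels of 0.498 to 40.4 CPM in breast and 3.70 to 26.03 CPM in lung, against 2.83 to 1178 CPM in non-tumor libraries. Of 9 astrocyte markers 1 rose and 2 fell in breast and 6 fell in lung, with sums of 298 to 816 CPM in breast and 604 to 968 CPM in lung, against 329 to 4056 CPM. The sort also held fibroblast RNA: in non-tumor brain all 11 fibroblast markers were higher than in the CD31 sort. Of these 11, 1 rose and none fell in breast, and 3 fell and none rose in lung (medians 0.12 and -1.70). Fibroblast sums were 1797 to 9136 CPM in breast and 171 to 2606 CPM in lung, against 931 to 2417 CPM in non-tumor libraries. Of 15 epithelial markers 11 rose in breast and 7 in lung, and none fell (medians 6.73 and 3.49). Their sums were 1251 to 4848 CPM in breast and 6490 to 10691 CPM in lung, against 25.98 to 123 CPM. The part of these other cells in the falls of Mfsd2a, Cav1, Cavin1 and Cavin3 was not tested.

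**Figure D3:**
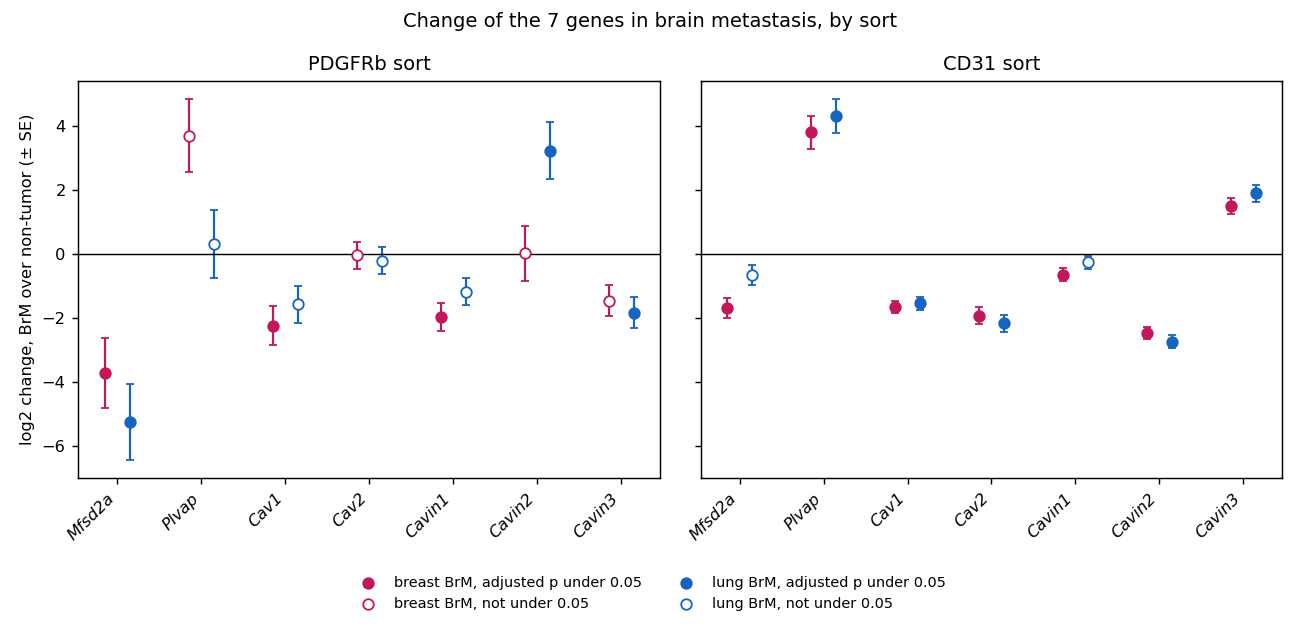
Log2 change of BrM over non-tumor brain with its SE for the 7 genes in the PDGFRb sort (left) and the CD31 sort (right). Filled points passed an adjusted p of 0.05. Cavin2 and Cavin3 lie on opposite sides of 0 between the lung points of both sorts, and the breast change of Plvap, 3.70 in the PDGFRb and 3.81 in the CD31 sort, passed in the CD31 sort alone.

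Mfsd2a was low in the PDGFRb sort and lowest in BrM. It had 0.166, 1.81, 1.35 and 3.85 CPM in breast BrM and 0.564, 1.36, 0.110 and 0.468 CPM in lung BrM, against 2.15, 14.2, 66.1, 18.7 and 21.4 CPM in non-tumor libraries, the highest being mouse 54135. The 0.166 CPM of breast mouse 51950 were 1 count and the 0.110 CPM of lung 55169-70 were 2 counts, under the floor of 3 counts. The log2 change was -3.71 ± 1.09 in breast (adjusted p = 0.048) and -5.25 ± 1.19 in lung (adjusted p = 0.0087). Of 9 libraries left out in turn 7 ended the breast call (adjusted p up to 0.13): breast mice 52599, 52865 and 53072 and non-tumor mice 54132, 54135, 56727 and 56740, with -2.95 without 54135. It was also lost without the filter on low counts (adjusted p = 0.058), by limma-trend (adjusted p = 0.081) and with mouse 54135 grouped by cell type label (-6.58, adjusted p = 0.056). The lung value was -4.52 without non-tumor mouse 54135 and -5.96 without lung mouse 54957. Within the 2 shared dates of breast and non-tumor libraries (2 and 1 each) the log2 ratio was -0.09 and -5.30, so the fall did not hold in the first, and within the shared date of lung and non-tumor libraries (2 each) it was -4.32. The endothelial markers of these libraries summed to 629.8 to 1657 CPM in breast BrM and 102 to 859 CPM in lung BrM, against 834 to 1364 CPM in non-tumor brain, and Pecam1 was lower in lung BrM (-4.58, adjusted p = 0.021). Of 13 such markers tested 2 rose and none fell in breast, and 1 rose and 3 fell in lung (medians -0.25 and -2.11). The sum includes Flt1, which rose in breast (264 ± 105 CPM, against 44.0 ± 17.7 CPM). Cldn5, also in it, had 1.89 ± 1.25 CPM in breast, against 10.7 ± 5.67 CPM. Ptprb, outside these markers, fell in breast (-3.84, adjusted p = 0.025). The part of endothelial cells in the Mfsd2a values was not tested.

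Plvap was low in all PDGFRb groups, with the highest values in breast BrM. Breast libraries had 45.3, 6.44, 12.4 and 7.85 CPM and lung libraries 3.84, 1.28, 0 and 1.70 CPM, against 0.569, 3.14, 1.94, 0.398 and 0.875 CPM in non-tumor brain. All 4 breast libraries lay above all others, yet the change of 3.70 ± 1.13 did not pass (adjusted p = 0.057). The 45.3 CPM come from the shallow library of mouse 51950, where Pecam1 had 3 counts (0.498 CPM). DESeq2 called the breast difference (adjusted p = 0.0019), and leaving out each library gave adjusted p-values of 0.064 to 0.13, with a change of 2.7004 without mouse 51950. For the lung library with 0 counts a count of 3 would be 0.165 CPM.

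Cav1 fell in breast BrM of the PDGFRb sort, with 4.15, 61.8, 70.7 and 35.0 CPM, against 270.1, 307, 87.7, 165 and 219 CPM in non-tumor libraries. The change of -2.24 ± 0.61 passed (adjusted p = 0.035) without overlap of the groups. It was lost by limma-voom (adjusted p = 0.075) and without each of breast mice 52599 and 53072 and non-tumor mice 53680, 54132, 56727 and 56740 (adjusted p up to 0.083), and within the 2 shared dates it was -3.78 and -0.40. Lung libraries had 87.7, 62.0, 64.4 and 59.8 CPM and the lung change of -1.57 ± 0.59 did not pass (adjusted p = 0.082). It passed by DESeq2 (adjusted p = 0.021), by limma-voom (adjusted p = 0.046) and with mouse 54135 grouped by cell type label (adjusted p = 0.035). Cav2 overlapped between all groups, with 33.1 to 113 CPM in breast BrM and 40.5 to 82.6 CPM in lung BrM, against 35.9 to 87.7 CPM in non-tumor brain (log2 changes -0.05 ± 0.42 and -0.20 ± 0.42, adjusted p = 0.97 and 0.81). Its 95% intervals reached from -0.86 to 0.77 in breast and from -1.02 to 0.61 in lung.

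Cavin1, with the highest FPKM of the 7 in this sort, had 515, 175, 206 and 101 CPM in breast BrM and 430.5, 359, 387 and 518 CPM in lung BrM, against 1646, 889.9, 449, 758 and 1218 CPM in non-tumor brain. The breast fall of -1.97 ± 0.44 passed (adjusted p = 0.015). Without the shallow library of mouse 51950, which overlaps the non-tumor range, it was -2.62 (adjusted p = 0.000803), and within the 2 shared dates it was -2.42 and -1.24. The lung change was -1.18 ± 0.43 (adjusted p = 0.074), and it passed by DESeq2 (adjusted p = 0.046), without non-tumor mouse 54135 (adjusted p = 0.035) and with that mouse grouped by cell type label (adjusted p = 0.047). Cavin3 had 149, 81.5, 55.6 and 44.4 CPM in breast BrM and 116, 65.0, 31.5 and 41.9 CPM in lung BrM, against 375, 312, 111, 151 and 208 CPM. It fell in lung BrM (-1.83 ± 0.48, adjusted p = 0.019) and missed the threshold in breast BrM (-1.46 ± 0.48, adjusted p = 0.071). The lung call was lost without each of lung mice 54957, 55169-70 and 56195-56520 and non-tumor mouse 53680 (adjusted p up to 0.063), and the breast difference passed without breast mouse 51950 (adjusted p = 0.018), by DESeq2 (adjusted p = 0.03) and by limma-voom (adjusted p = 0.043).

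Cavin2 was the exception in lung BrM of the PDGFRb sort. The 4 lung libraries had 33.3, 68.4, 45.9 and 61.9 CPM, against 4.17, 5.04, 3.20, 6.67 and 9.94 CPM in non-tumor libraries. Breast BrM had 0, 3.24, 10.3 and 8.99 CPM, within or near the non-tumor range (log2 change 0.02 ± 0.85, adjusted p = 1). All lung libraries were higher than all other libraries of the sort, and the lung change was 3.23 ± 0.89 (9.39-fold, adjusted p = 0.023). Leaving out each of 9 libraries kept it between 2.998 and 3.504 and ended the call in 7 cases (lung mice 54957, 55169-70 and 56195-56520 and non-tumor mice 53680, 54132, 54135 and 56727, adjusted p up to 0.066). It was also lost by limma-trend (3.21, adjusted p = 0.083) and was -1.05 with mouse 54135 grouped by cell type label. It was 2.96 within the shared date (2 libraries each). Against breast BrM, with which they share no date, the lung libraries differed by 3.21 ± 0.97 (adjusted p = 0.069), and by 2.77 without breast mouse 51950 (adjusted p = 0.0033).

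**Figure D4:**
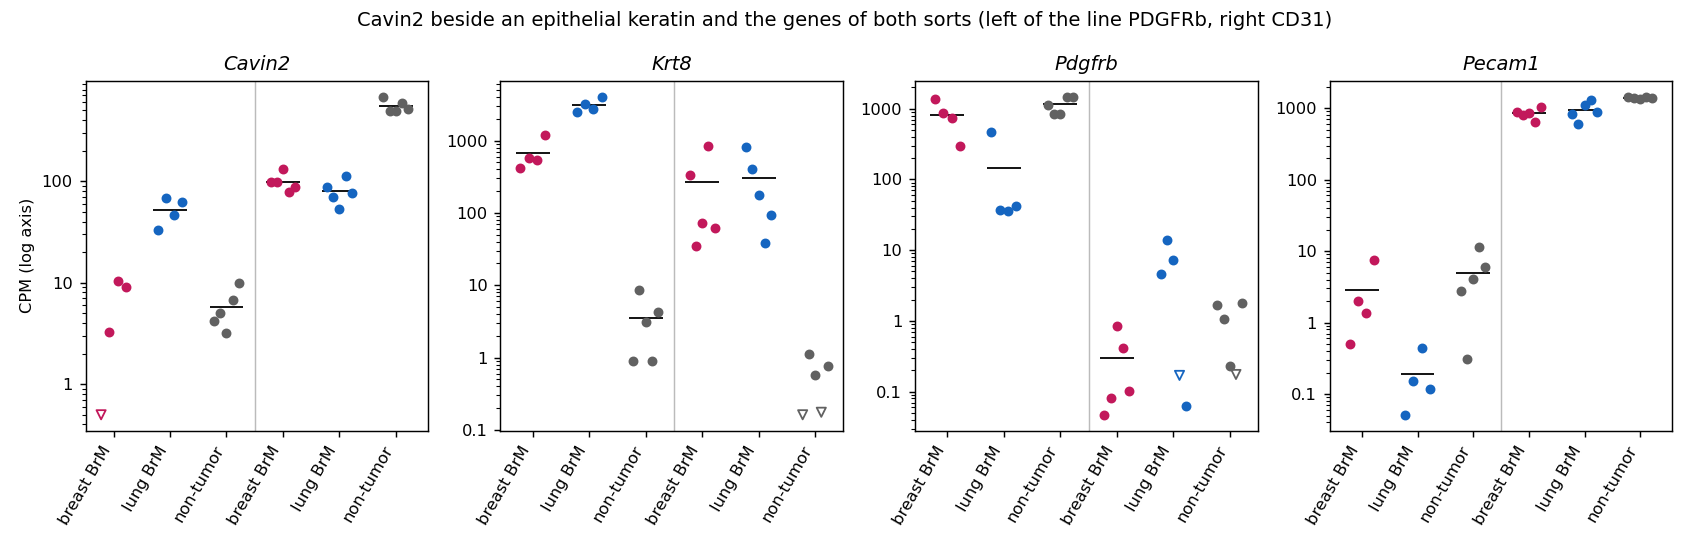
CPM of Cavin2, Krt8 (an epithelial keratin), Pdgfrb and Pecam1 on log axes, 1 point per library, with the PDGFRb sort left of the grey line and the CD31 sort right of it. Bars are group means, drawn where no library is at 0, and open triangles are libraries with 0 counts, drawn at 3 counts. In the PDGFRb sort, the lung BrM libraries are highest for Cavin2 and Krt8, 3 of the 4 are lowest for Pdgfrb, and 3 of the 4 (a different set, with mouse 51435 and without 55169-70) are lowest for Pecam1.

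These lung libraries stand apart in other genes too, as the plot of Cavin2 beside the sort genes shows. Krt8 had 2494, 3264, 2708 and 4033 CPM in the same 4 libraries, and Pdgfrb 466, 36.9, 36.0 and 42.2 CPM. Mouse 51435, with the most Pdgfrb and the least Krt8 of the 4, had the least Cavin2 (33.3 CPM), still above every non-tumor library. Breast libraries with Krt8 of 418 to 1197 CPM had 0 to 10.3 CPM of Cavin2. Of 14 mural markers 10 fell in lung BrM and none rose, and of 15 epithelial markers 7 rose, with summed levels of 6490 to 10691 CPM in lung BrM, against 25.98 to 123 CPM in non-tumor brain. The epithelial rise was not particular to lung: in breast BrM of this sort 11 of the 15 rose, with sums of 1251 to 4848 CPM. The part of these other cells in the 3 lung calls was not tested. With the lung group reduced to mouse 51435, Cavin2 was 2.48, Mfsd2a -5.46 and Cavin3 -1.02. A single library cannot decide whether the lung calls hold. That setting was chosen after the data were seen and takes the single lung library to vary like the other groups.

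Lung against breast BrM in the PDGFRb sort gave no call among the 7 (2 at an unadjusted p under 0.05; Plvap and Cavin2 by DESeq2, Cavin2 by limma-voom and limma-trend), where 5.47% of genes passed (3.08% higher and 2.39% lower in lung). Beside Cavin2, the other gene without overlap was Plvap, lower in lung (log2 difference -3.39 ± 1.22, adjusted p = 0.12). Cavin1 would have passed without breast mouse 51950 (1.38, adjusted p = 0.029). In this sort too, lung and breast libraries share no date, so tumor type and date cannot be told apart.

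In the PDGFRb sort 108 genes of the 6 pathway lists were tested, of which 6 rose and 4 fell in breast (9.26%, against 8.99% of all genes) and 8 rose and 12 fell in lung (18.5%, against 17.5%). Both shares are near those of all genes. Their median log2 change was -0.06 in breast and -0.10 in lung, and over all genes -0.16 and -0.03. Of 19 tested genes of caveola assembly and scission 1 rose and 1 fell in breast, and 1 rose and 5 fell in lung (medians -0.13 and -0.48). Cav3, the muscle caveolin, had 0 counts in both BrM groups, against 95 counts in non-tumor libraries, at least 19.2-fold lower in breast and at least 20.9-fold lower in lung against a floor of 3 counts over the group (adjusted p = 0.028 and 0.015). With Cav3 at that bound the medians stayed as given. Src rose in both, by 1.51 in breast (adjusted p = 0.028) and 1.22 in lung (adjusted p = 0.043). Ehd2, an ATPase at the neck of caveolae, fell in lung BrM to 120.2 ± 63.1 CPM, against 323 ± 110.2 CPM in non-tumor brain (adjusted p = 0.025), and had 289 ± 140.4 CPM in breast BrM (adjusted p = 0.88). Of 18 clathrin coat genes none passed in breast (smallest adjusted p 0.099, Cltb) and 2 rose and 1 fell in lung, Dab2 rising by 2.32. Among 17 cargo receptors Sort1 fell in both (-2.14 and -2.33), Tfrc rose in breast (1.94; 0.53 in lung, adjusted p = 0.53) and Lrp1 fell in lung (-1.88; -0.56 in breast, adjusted p = 0.44), with medians of -0.32 and -0.03. Of 20 endosome genes none passed in breast (smallest adjusted p 0.059, Rab5c) and Rab5b and Rab11b fell in lung. Of 17 fenestra and permeability genes 2 rose and 1 fell in breast and 2 rose in lung, Flt1 in both (2.61 and 1.45). Of 17 lipid transport genes 2 rose and 1 fell in breast and 3 rose and 2 fell in lung, among them Fabp5 in breast (1149.9 ± 256 CPM, against 88.0 ± 44.9 CPM in non-tumor brain) and Acsl5 in lung (222 ± 31.9 CPM, against 35.4 ± 7.98 CPM).

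Between the sorts, most of the 7 genes were lower in libraries labelled PDGFRb than in those labelled CD31 of the same state: 6 of 7 in breast, 5 in lung and 5 in the non-tumor state, and none was higher, where 16.5%, 19.6% and 27.9% of 18548 genes passed. Of all genes, 7.51%, 9.36% and 10.5% were lower in the PDGFRb sort in these states, and 9%, 10.2% and 17.4% were higher. In non-tumor brain the 5 were Mfsd2a (-4.97 ± 0.67), Plvap (-3.27 ± 0.75), Cav1 (-1.88 ± 0.41), Cav2 (-2.89 ± 0.33) and Cavin2 (-6.57 ± 0.59, 95.1-fold lower, adjusted p = 3.5e-09). Cavin1 (0.37 ± 0.32, adjusted p = 0.47) and Cavin3 (0.81 ± 0.37, adjusted p = 0.1) did not pass there. DESeq2 called Cavin3 higher in the PDGFRb sort (adjusted p = 0.039), as did RLE scaling (adjusted p = 0.046) and the fits without PDGFRb mouse 54135 or 56727 (adjusted p down to 0.027). None of these 5 calls held once mouse 54135 was grouped by cell type label, where no gene of the table passed. That grouping exchanges its libraries between the sorts, against their Pdgfrb and Pecam1 values. The call of Plvap was also lost by limma-voom (adjusted p = 0.071).

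The lung libraries labelled PDGFRb, 3 of which had Pdgfrb at 36.0 to 42.2 CPM and all of which had Krt8 at 2494 CPM or more, enter every lung value of a comparison between sorts. In lung BrM the difference between the sorts in Cavin2 did not pass, with 52.4 ± 15.8 CPM in the libraries labelled PDGFRb (n = 4) and 79.3 ± 21.7 CPM in the CD31 sort (n = 5; -0.60 ± 0.50, adjusted p = 0.44, 95% interval -1.58 to 0.38). In breast BrM it had 5.64 ± 4.86 CPM in the PDGFRb sort and 98.3 ± 19.8 CPM in the CD31 sort (-4.09 ± 0.58, adjusted p = 1.1e-05). Cavin3 was lower in the PDGFRb sort in both tumor types (-2.15 ± 0.41 in breast and -2.88 ± 0.43 in lung, adjusted p = 0.000495 and 1.9e-05). Mfsd2a was lower in the PDGFRb sort in both (-6.97 ± 0.82 in breast and -9.59 ± 0.93 in lung), and so were Plvap (-3.37 ± 0.81 and -7.22 ± 0.98) and Cav1 (-2.47 ± 0.45 and -1.89 ± 0.44). Cav2 passed narrowly in both (-1.01 ± 0.33 and -0.93 ± 0.33, adjusted p = 0.038 and 0.049). Its breast call was lost without 6 of 9 libraries (CD31 mice 51950, 52865, 53072 and 53142 and PDGFRb mice 51950 and 52599) and its lung call without 7 of 9 (CD31 mice 51435, 54957, 55169-70 and 56195-56520 and PDGFRb mice 51435, 54957 and 55169-70), with adjusted p up to 0.1 and 0.15. Both calls of Cav2 were also lost with RLE scaling (adjusted p = 0.0504 and 0.053), without the filter on low counts (adjusted p = 0.075 and 0.054) and with mouse 54135 grouped by cell type label (adjusted p = 0.31 and 0.32), which ended the breast call of Cavin2 as well (adjusted p = 0.053). Without the lung libraries naming 2 mice the lung calls of Cav1 (adjusted p = 0.12) and Cav2 (adjusted p = 0.25) were lost. Cavin1 passed in breast by limma-voom (-1.37, adjusted p = 0.048). So it did without PDGFRb mouse 51950 (-1.63, adjusted p = 0.0007) and without CD31 mouse 53072 (-1.05, adjusted p = 0.049). With the lung group of the PDGFRb sort reduced to mouse 51435, the lung difference was -1.64 for Cav1, -1.32 for Cav2 and -2.12 for Cavin3. A single library cannot decide whether these lung calls hold. With mice as a replicate block, using the 13 mice that gave both sorts, the breast call of Plvap was lost (-3.66, adjusted p = 0.058), and 1338 genes passed in breast and 1918 in lung, against 3063 and 3636 without the block. Without PDGFRb mouse 51950 its difference was -4.42, and without PDGFRb mouse 51435 the lung difference of Plvap was -8.01. The difference of Mfsd2a was -7.59 without PDGFRb mouse 53072 in breast, -10.31 without 54957 in lung and -5.70 without 54135 in non-tumor brain.

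Whether BrM acted differently on the sorts was tested as a difference of effects, PDGFRb minus CD31. In breast BrM 3 of 7 genes passed, where 5.93% of genes did (2.35% above 0 and 3.57% below): Cav2 (1.88 ± 0.45, adjusted p = 0.011) and Cavin2 (2.48 ± 0.69, adjusted p = 0.029), which fell in the CD31 sort and did not pass in the PDGFRb sort, and Cavin3 (-2.96 ± 0.55, adjusted p = 0.0011), which rose in the CD31 sort. In lung BrM 5 passed, where 10.1% of genes did (3.77% above 0 and 6.35% below): Mfsd2a (-4.63 ± 0.92, adjusted p = 0.0013), Plvap (-3.95 ± 1.06, adjusted p = 0.016), Cav2 (1.9602 ± 0.45, adjusted p = 0.0048), Cavin2 (5.97 ± 0.72, adjusted p = 2.9e-06) and Cavin3 (-3.70 ± 0.56, adjusted p = 5.4e-05). In the lung libraries as labelled, Cavin2 had a negative change in the CD31 sort and a positive one in the PDGFRb sort, and Cavin3 a positive and a negative one. The PDGFRb side of both includes the 3 libraries low in Pdgfrb. With that group reduced to mouse 51435 the change within the sort was 2.48 for Cavin2 and -1.02 for Cavin3. A single library cannot decide whether the PDGFRb side rests on those 3. With mice as a replicate block the breast difference of Cavin2 (1.90, adjusted p = 0.45) and the lung difference of Plvap (-3.40, adjusted p = 0.28) were lost, and 328 genes passed in breast and 852 in lung, against 1099 and 1876 without the block. Other settings ended calls too: limma-voom those of Mfsd2a (adjusted p = 0.078) and Plvap (adjusted p = 0.16) in lung and Cavin2 in breast (1.41, adjusted p = 0.42), and the date as a covariate those of Plvap in lung (adjusted p = 0.088) and Cavin2 in breast (adjusted p = 0.056). Without the lung libraries naming 2 mice the lung differences of Plvap (adjusted p = 0.17) and Cav2 (adjusted p = 0.079) were lost, and without mouse 54135 in both sorts the breast difference of Cavin2 (adjusted p = 0.077). Cavin2 in breast was also lost in 9 of 19 fits without 1 library (adjusted p up to 0.1): CD31 mice 52599, 53072 and 53142 of breast BrM, CD31 mouse 53680 of non-tumor brain, PDGFRb mice 52865 and 53072 of breast BrM, and PDGFRb mice 53680, 54135 and 56727 of non-tumor brain. The breast difference of Cavin1 passed without PDGFRb mouse 51950 (-1.95, adjusted p = 0.0032) and without PDGFRb mouse 54135 (-1.64, adjusted p = 0.026). The lung difference of Mfsd2a was -3.96 without PDGFRb mouse 54135 and -5.42 without PDGFRb mouse 54957, and that of Plvap was -4.74 without PDGFRb mouse 51435. With the PDGFRb lung group reduced to mouse 51435 the lung difference was 5.16 for Cavin2, -2.98 for Cavin3, -4.87 for Mfsd2a, -2.94 for Plvap and 1.52 for Cav2. Grouping mouse 54135 by cell type label ended the calls of Cav2 and Cavin2 in both tumor types, with -1.97 for Cavin2 in breast and 1.53 in lung.

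Over the 6 groups the genes differ in where they are highest. Mfsd2a was highest in CD31 non-tumor, then CD31 lung and CD31 breast, all above the 3 PDGFRb groups, and neighbouring groups overlapped other than CD31 breast and PDGFRb non-tumor. Plvap was highest in CD31 lung and CD31 breast, followed without overlap by PDGFRb breast and CD31 non-tumor, which overlapped each other, and then by the other PDGFRb groups. Cav1, Cav2 and Cavin2 each stood alone at the top in CD31 non-tumor brain, without overlap with the next group. Cavin2 had a second break, between PDGFRb lung and PDGFRb non-tumor. Cavin1 and Cavin3 changed by overlapping steps throughout, with PDGFRb non-tumor highest for Cavin1 (992 ± 458 CPM, SD, n = 5) and CD31 lung highest for Cavin3 (469.6 ± 87.5 CPM).

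Genes with the most similar pattern were ranked over the 15 CD31 libraries by the root mean square difference of centred log2 CPM, among 9518 genes whose mean log2 CPM reached 3. Nearest to Mfsd2a were Abcc4 (0.30), Ncoa4 (0.33), C530008M17Rik (0.33), Slc52a2 (0.35) and Ly75 (0.37), while the nearest of the other 6 genes, Cav1, ranked 536. Nearest to Plvap were Emilin1 (0.56), Tnfaip2 (0.60), Synpo (0.60), Exoc3l2 (0.60) and Plekho1 (0.61), and Cavin3 ranked 262. Nearest to Cav1 were Layn (0.24), Tspan13 (0.26), Amd1 (0.27), Trim65 (0.28) and Prr5l (0.28), with Cav2 at rank 126 and Cavin2 at rank 580. These values describe likeness across libraries that fall into 3 groups, and the same group differences enter every gene.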

How the data were processed

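The 5 deposited tables hold expected counts, log2 values and FPKM. Expected counts are the authors' estimated reads per gene, not scaled. The log2 values were deposited by the authors as 1 table per sort. FPKM values, scaled by gene length and depth, were deposited by the authors as well. The submitters' processing notes list build mm10 with limma 3.50.3, edgeR 3.36.0, RSEM 1.3.3 and STAR 2.7.9a, without saying in which order they ran; the annotation release is not given in the sources used here. Per the labels' protocols, libraries were made with a SMART-Seq HT low-input kit and Nextera XT, without strand or molecular identifiers, so floors cover counting error only.

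Expected counts were rounded, genes kept by filterByExpr, libraries scaled by TMM, and each sort fitted with its 3 groups by edgeR 4.0.16's quasi-likelihood test (R 4.3.3). A fit of all 6 groups gave the comparisons between sorts, the differences of effects and the scale of all CPM printed. Gene IDs with no symbol stayed in the fits and held 0.182% to 1.57% of counts. A floor of 3 counts lay at 0.119 to 0.498 CPM. SE is the log2 change over the root of F, and intervals are 95% normal intervals from it. With few libraries such intervals are narrower than the quasi-likelihood test allows. For Mfsd2a in CD31 lung BrM against non-tumor brain the interval was -1.26 to -0.029, where that test gave an unadjusted p of 0.057. Alternatives were RLE scaling, no filter, DESeq2 1.42.0, limma-voom, limma-trend (limma 3.58.1) on the deposited log2 values, date as covariate, mouse 54135 by its cell type label, each library left out, the lung libraries naming 2 mice left out, and mouse as a replicate block. No library looked like a copy of another: over 52 pairs of replicates, the lowest chi-square per degree of freedom was 17.6.

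Groups come from titles. The same mouse number in both sorts is the same animal, which pairs the samples. Of 13 such pairs, 4 had a correlation of deviations from group means above 0.1 (range -0.119 to 0.274, median -0.00344, over 9396 genes). Nothing else says how replicates differ, so p-values measure the spread between these libraries. The 7 genes, the 6 pathway lists and the 8 marker lists were chosen with earlier results of these data known. 1 list symbol had no match. Per list and comparison, up to 4 genes that passed with the largest changes were open to naming, or the smallest adjusted p where none passed. Dates are those in the column names.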

Additional observations from a re-analysis of the deposited data

Results flagged for a closer look

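Of 42 sets of 1 gene in 1 group, 3 held a library far from the others, where chance gives about 1 in 20. Plvap had 45.3 CPM in the PDGFRb breast library of mouse 51950, against 6.44 to 12.4 CPM in the other 3. Cav1 had 87.7 CPM in the PDGFRb lung library of mouse 51435, against 59.8 to 64.4 CPM. Cavin3 had 166 CPM in the CD31 non-tumor library of mouse 54135, against 114 to 129 CPM.

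The effect of BrM differed between the sorts by the test of that difference (PDGFRb minus CD31, log2) for 3 genes in breast, Cav2 (1.88), Cavin2 (2.48) and Cavin3 (-2.96). In lung it differed for Mfsd2a (-4.63), Plvap (-3.95), Cav2 (1.9602), Cavin2 (5.97) and Cavin3 (-3.70). Both sets share non-tumor libraries. In the PDGFRb lung libraries, Krt8 had 2494 to 4033 CPM and Pdgfrb 36.0 to 466 CPM, and the part of this in the lung differences was not tested.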

How the results depend on the processing

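Of 77 results (7 genes in 11 comparisons), 42 passed the test, and 15 of these passed under every setting run. Those settings include mouse 54135 by its cell type label, which mixes the sorts, and a PDGFRb lung group of 1 library. How many calls pass in all settings but these was not counted. Over 630 values from other settings 535 kept direction and side of the threshold, 56 lost the call, 16 gained one and 23 turned direction. Of 854 values with 1 library left out, 766 were alike, 49 lost, 12 gained and 27 turned. Both turns of a called value came with mouse 54135 grouped by cell type label. The cause was not tested unless a setting has fewer samples by construction.

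Genes called of 7, where the count moved over 1.5 times, were as follows. DESeq2 gave 1 in CD31 lung against breast, 5 in PDGFRb breast, 5 in PDGFRb lung and 2 in PDGFRb lung against breast. limma-voom gave 1 in PDGFRb lung against breast and 3 for the lung difference of effects, and limma-trend gave 1 in PDGFRb lung against breast. Date as a covariate gave 0 in PDGFRb breast and 0 in PDGFRb lung. Mouse 54135 by its other label gave 4 in CD31 breast, 0 between sorts in non-tumor brain, and 1 and 3 for the breast and lung differences of effects. Leaving out the lung libraries with 2 mice gave 0 in PDGFRb lung, 3 between sorts in lung and 3 for the lung difference of effects. Leaving out the 3 lung libraries low in Pdgfrb gave 0, 2 and 1 for the same. That setting, and mouse 54135 left out in both sorts, were chosen after seeing the data. Without 1 library the counts ranged from 6 to 7 in CD31 breast, 5 to 6 in CD31 lung, 0 to 1 in CD31 lung against breast, 1 to 4 in PDGFRb breast, 1 to 3 in PDGFRb lung, 0 to 2 in PDGFRb lung against breast, 5 to 6, 4 to 5 and 5 to 6 between sorts in breast, lung and non-tumor, and 2 to 4 for the breast difference of effects, and stayed at 5 for the lung one.

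The log2 values that turned were uncalled ones, with the exception of Cavin2 in PDGFRb lung and in the breast difference of effects. In CD31 lung against breast, Plvap was -0.30 with date and -0.27 without the 2-mouse libraries, and Cav1 was -0.39 with date. In PDGFRb breast, Cavin2 was -0.11 with RLE scaling, -0.037 without a filter, -0.11 by DESeq2, -1.12 by limma-voom, -1.28 by limma-trend and -4.23 with mouse 54135 by its other label, and Cav2 was 0.44 with date. In PDGFRb lung, Plvap was -0.56 by limma-voom, -0.63 by limma-trend and -1.11 with mouse 54135 by its other label, where Cavin2 was -1.05. Cavin3 in PDGFRb lung against breast was 0.13 without the 2-mouse libraries and 0.51 without those low in Pdgfrb. The breast difference of effects was 0.21 with date and 0.10 without mouse 54135 for Plvap, and -1.97 for Cavin2 with mouse 54135 by its other label. The lung difference of Cav1 was 0.17 by limma-voom, 0.037 with date, 0.014 without the 2-mouse libraries and 0.19 without those low in Pdgfrb. Without 1 library, values ranged from -0.014 to 0.77 for Plvap in CD31 lung against breast, -0.51 to 0.13 for Cav2 and -0.45 to 0.39 for Cavin2 in PDGFRb breast, -0.52 to 0.81 for Plvap in PDGFRb lung, -0.42 to 0.22 for Cav2 and -0.83 to 0.0495 for Cavin3 in PDGFRb lung against breast, -1.10 to 0.44 for Plvap in the breast difference and -0.33 to 0.17 for Cav1 in the lung one.

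With date as a covariate 2291 and 1458 genes passed in CD31 breast and lung (4473 and 5182 without it), 0 in CD31 lung against breast (317), 115 and 578 in PDGFRb breast and lung (1531 and 2977) and 102 in PDGFRb lung against breast (931). DESeq2 gave 3137 and 4483 in PDGFRb breast and lung, 872 and 2314 in lung against breast of CD31 and PDGFRb, and 1931 for the breast difference of effects (1099). limma-voom gave 505 in CD31 lung against breast and 1597 in PDGFRb lung against breast. With mouse 54135 by its other label 2390, 3000 and 63 genes passed in CD31 breast, lung and lung against breast, and 644, 1816 and 426 in the same of PDGFRb. Between sorts that label gave 1770 in breast (3063), 2088 in lung (3636) and 0 in non-tumor (5173), and for the differences of effects 47 in breast and 330 in lung (1876). Without the lung libraries with 2 mice 529 passed in CD31 lung against breast, 752 in PDGFRb lung, 120 in PDGFRb lung against breast, 1179 between sorts in lung and 710 for the lung difference. Without those low in Pdgfrb the last 4 were 161, 26, 930 and 210. Without mouse 54135 in both sorts 701 passed for the breast difference. The median of all genes in PDGFRb breast, -0.16, was -0.27 with RLE scaling and by DESeq2, -0.46 without a filter, -0.69 by limma-voom and -0.33 by limma-trend. In PDGFRb lung, -0.03, it was -0.15 with RLE scaling and by DESeq2, -0.36 without a filter, -0.19 without the 2-mouse libraries, -0.14 with mouse 54135 by its other label and -0.40 without those low in Pdgfrb. RLE scaling also moved it to 0.27 between sorts in non-tumor brain (0.10) and to -0.19 for the lung difference of effects (-0.04), where the fit without those low in Pdgfrb gave -0.60. Mouse as a replicate block changed no call of the 7 genes beyond Plvap between sorts in breast (-3.66), Cavin2 in the breast difference (1.90) and Plvap in the lung one (-3.40). Depth limits the low values: 3 counts are 0.119 to 0.498 CPM, which bears on Mfsd2a and Plvap in the PDGFRb sort.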
